A study of Homo sapiens with 11 samples.

Results

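Mitophagy receptors and autophagy adaptors are described here by 10 genes: the receptors BNIP3, BNIP3L and FUNDC1, the kinase gene PINK1, the cargo adaptors SQSTM1 and OPTN, the ATG8 genes MAP1LC3B and GABARAPL1, and ULK1 and WIPI1, which act when an autophagosome is started. They were picked by symbol from the 60676 genes of the count table, and all 10 passed the filter on low counts that kept 19981 genes. RNA-seq was made from RWPE1, an immortalized and non-tumorigenic line of human prostate epithelial cells, kept in keratinocyte serum-free medium with bovine pituitary extract and EGF. Untreated cells in normoxia (0 h, 3 libraries) were set against cells kept at 1% oxygen for 6 h (3 libraries), 12 h (3 libraries) or 24 h (2 libraries; the other replicate of this time was not analysed here). The medium of the hypoxic cells also held 10 mM HEPES, so that oxygen and buffer cannot be told apart, and the comparisons with 0 h all share the same normoxic libraries.

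In mitophagy, damaged or surplus mitochondria are enclosed by an autophagosome and degraded in the lysosome. Receptors such as BNIP3, its paralogue BNIP3L (also called NIX) and FUNDC1 sit in the outer mitochondrial membrane and bind ATG8 proteins on the growing autophagosome. In the other route PINK1 accumulates on mitochondria that have lost their membrane potential and phosphorylates ubiquitin there, and soluble adaptors such as OPTN and p62 (the product of SQSTM1) bind both ubiquitin and ATG8 proteins. BNIP3 and BNIP3L are long known as genes that hypoxia-inducible factors (HIF) switch on. RNA was measured and neither protein nor mitophagy, and in bulk samples a smaller share of cells cannot be told apart from less RNA per cell.

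Levels are counts per 1000000 on the TMM scale (CPM, in which library sizes are corrected by trimmed means of log ratios). The word called marks an adjusted p under 0.05 in edgeR's quasi-likelihood test, adjusted by the Benjamini-Hochberg method over the 19981 genes. The labels number the replicates and do not say whether they came from separate cultures, so p-values measure the spread between these libraries. The libraries held 27496009 to 49488345 counts. TMM factors were 1.29 to 1.32 at 0 h and 0.851 and 0.539 in 24 h replicates 1 and 2. This last library stands apart, and the 24 h values of the 10 genes are therefore also given without it. Scaling by library size alone shifted the median change over the tested genes from -0.00, -0.03 and -0.06 (log2) to -0.32, -0.50 and -0.97 at 6, 12 and 24 h, and among the calls the higher ones made up 27.6%, 20.0% and 16.4% in place of 47.6%, 47.2% and 48.8%. Genes whose direction turned under that scaling are named where they are described. Of the 5 basal epithelial markers KRT5 was at 6080 to 15900 CPM. On average KRT5, KRT14 and KRT17 were higher in hypoxia while KRT15 (292 to 113 CPM) and TP63 (242 to 95.8 CPM) were lower. The 4 simple epithelial markers summed to 608 to 672 CPM at 0 h and 1150 to 2080 CPM in hypoxia. On average KRT8 went from 143 to 535 CPM, KRT18 from 102 to 407 CPM and EPCAM from 68.5 to 113 CPM. CDH1 did not rise (324 to 321 CPM). KLK3, the gene of prostate-specific antigen, had 0 counts in all 11 libraries, while ACP3, another secretory luminal marker, was at 0.763 to 3.34 CPM. The endothelial and leukocyte markers were at or near 0. Of the 4 fibroblast markers, COL1A1 was at 27.7 to 60.5 CPM while COL1A2, DCN and LUM had at most 3 counts, and the summed level of the list was 47.1 to 60.6 CPM at 0 h and 27.9 to 46.2 CPM in hypoxia. The part of these markers in the results was not tested.

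At 6 h 8 of the 10 genes were called, 5 higher and 3 lower. Much of the transcriptome differed from 0 h, and the background for such a count was 52.8% of all tested genes called at 6 h (25.1% higher, 27.7% lower). At 12 h 7 genes were called, 4 higher and 3 lower, beside 51.2% of all genes (24.2% higher, 27.1% lower). At 24 h 7 were called, 5 higher and 2 lower, beside 61.2% (29.9% higher, 31.3% lower). Leaving out 24 h replicate 2 the last count was again 7, 5 higher and 2 lower, beside 55.6% of all genes (26.5% higher, 29.1% lower). The median log2 fold change of the 10 genes was 0.17, 0.28 and 0.54 at the 3 times. Over the mean of the 3 hypoxic times 8 genes were called, beside 63.7% of all genes (29.9% higher, 33.8% lower): BNIP3, BNIP3L, PINK1, MAP1LC3B and GABARAPL1 were higher, although PINK1 (-0.07) and GABARAPL1 (-0.06) turned with library size alone, and SQSTM1, ULK1 and WIPI1 were lower. The hypoxic libraries lay entirely above the normoxic ones for 4 genes and entirely below them for 3, beside 20.5% and 25.0% of all genes (45.5% together). Without 24 h replicate 2 OPTN was also called higher (0.32, adjusted p = 0.0402).

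**Figure D1:**
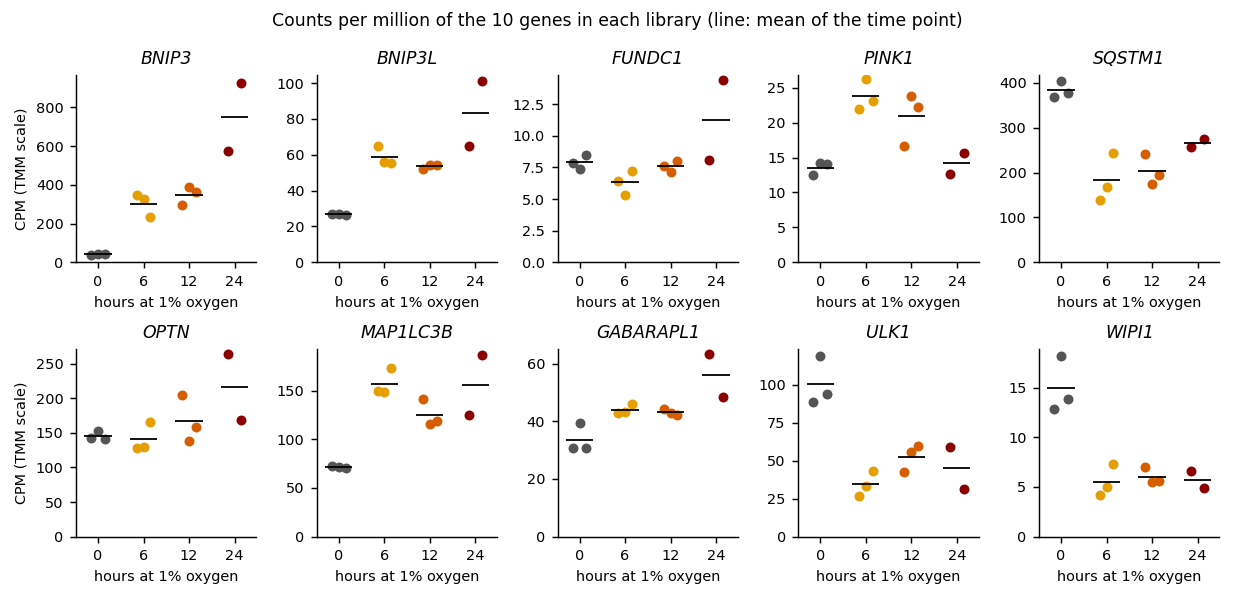
Level of each gene in CPM (TMM scale, linear axis from 0) against hours at 1% oxygen. A point is a library (3 at 0, 6 and 12 h, 2 at 24 h) and a line is the mean of a time point. The 8 hypoxic libraries lie above the 3 normoxic ones for BNIP3, BNIP3L, MAP1LC3B and GABARAPL1 and below them for SQSTM1, ULK1 and WIPI1, 7 of 10 genes beside 45.5% of all tested genes.

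BNIP3 (ENSG00000176171, chr10:131967684-131981967, minus strand of GRCh38) rose most of the 10 genes. Its levels were 38.9, 42.2 and 40.3 CPM at 0 h, 348, 324 and 235 CPM at 6 h, 296, 387 and 365 CPM at 12 h, and 576 and 925 CPM at 24 h. Every hypoxic library lay above every normoxic one, and both 24 h libraries lay above all at 6 and 12 h. The log2 fold change was 2.90 ± 0.22 at 6 h (SE; 7.47-fold), 3.11 ± 0.22 at 12 h (8.63-fold) and 4.21 ± 0.24 at 24 h (18.5-fold), with edgeR's adjusted p at 1.22e-06, 1.29e-06 and 3.16e-07. Without 24 h replicate 1 or 2 the value at 24 h was 4.46 or 3.81, and with library size alone 3.22. Per kilobase of exon, BNIP3 stood above 83.3% of the measured genes at 0 h and above 96.9%, 96.9% and 97.4% of them at 6, 12 and 24 h.

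The stretch upstream of the BNIP3 start is shown with those of 3 other genes, since the 4 differ in how they moved: BNIP3 rose, ULK1 and WIPI1 fell, and FUNDC1 was not called. The windows run from 200 to 51 bases before the RefSeq start (GRCh38.p14), are 150 bases long, and are written 5′ to 3′ on the strand of the gene. Capitals mark ACGTG and GCGTG on either strand, the letters at the core of the sites that HIF binds; on the opposite strand GCGTG reads as CACGC. The whole palindrome CACGTG is capitalised where it holds the former.
BNIP3, chr10:131981974-131982123, minus strand: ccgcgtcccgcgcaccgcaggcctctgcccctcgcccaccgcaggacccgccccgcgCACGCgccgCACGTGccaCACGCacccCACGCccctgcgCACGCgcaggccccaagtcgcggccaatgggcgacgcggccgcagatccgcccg
FUNDC1, chrX:44542910-44543059, minus strand: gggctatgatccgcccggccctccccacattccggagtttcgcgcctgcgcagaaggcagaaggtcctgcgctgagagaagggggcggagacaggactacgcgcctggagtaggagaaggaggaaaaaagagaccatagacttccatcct
ULK1, chr12:131894422-131894571, plus strand: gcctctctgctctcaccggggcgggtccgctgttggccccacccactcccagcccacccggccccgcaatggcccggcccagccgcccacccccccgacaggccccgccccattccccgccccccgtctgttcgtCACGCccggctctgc
WIPI1, chr17:68457547-68457696, minus strand: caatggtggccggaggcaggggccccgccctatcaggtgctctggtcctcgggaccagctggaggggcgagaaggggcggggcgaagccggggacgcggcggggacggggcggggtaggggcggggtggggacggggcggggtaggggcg

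In the 250 bases before the start, BNIP3 held 6 matches: 4 GCGTG, all on the opposite strand, and 2 ACGTG that are both strands of 1 palindrome, CACGTG, at 134 to 129 bases before the start. The 5 stretches lay within 143 to 100 bases of the start. MAP1LC3B held 4 GCGTG in its window, between 167 and 110 bases before the start, and 1 TGACNNNGC, letters found in antioxidant response elements. From 200 to 51 bases before this RefSeq start, all 150 bases lie in GENCODE exons. The same stretch held 0 exonic bases for BNIP3, FUNDC1, ULK1 and WIPI1, and was exonic in part for SQSTM1, OPTN and GABARAPL1. ULK1 held 1 GCGTG. The windows of FUNDC1, SQSTM1, OPTN, GABARAPL1 and WIPI1 held none of these letters. Of 35116 RefSeq windows of the same length 43.2% held ACGTG or GCGTG, 6.34% CACGTG and 10.9% TGACNNNGC. Beside this stand 3 of the 8 genes with an entry for ACGTG or GCGTG, counted by gene and not by window. SQSTM1 had 3 starts with a window each and OPTN had 2. A match is a run of letters and no evidence of binding, and a window without one says nothing of sites elsewhere.

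A second gene at which reads may be shared was counted with BNIP3. BNIP3P1 is a processed copy of BNIP3, and 20.1% of its 75-base windows occur unchanged in BNIP3 transcripts, while 7.38% of BNIP3's windows occur in the copy. In every library its counts were 20.6% to 23.1% of those of BNIP3. It changed by 2.89, 3.04 and 4.25 at the 3 times (log2), beside 2.90, 3.11 and 4.21 for BNIP3. How reads with several matches were counted is not given in the sources used here, so that the split between the pair is uncertain. With the counts of both added together the changes were 2.90, 3.10 and 4.22.

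BNIP3L (ENSG00000104765, chr8:26383054-26505636, plus strand) rose too, but by less. It was at 26.8, 27.1 and 26.4 CPM at 0 h, at 64.7, 55.8 and 55.6 CPM at 6 h, at 52.3, 54.1 and 54.0 CPM at 12 h, and at 65.0 and 101 CPM at 24 h. The normoxic libraries differed by less than 1 CPM, and the lowest hypoxic library was above them. Against normoxia it changed by 1.13 ± 0.16, 1.00 ± 0.16 and 1.63 ± 0.17 (log2, SE; adjusted p = 7.94e-05, 0.000254 and 8.11e-06, edgeR), and 1.85 or 1.26 at 24 h without 24 h replicate 1 or 2. With library size alone the changes were 0.81, 0.53 and 0.64. Exons of PNMA2 lie on the other strand of 7.95% of its exonic bases, at a mean of 0.265 CPM or less at each time.

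FUNDC1 (ENSG00000069509, chrX:44523639-44542859, minus strand), whose protein is a receptor controlled by phosphorylation, was not called at any time. Its levels were 7.88, 7.41 and 8.51 CPM at 0 h, 6.46, 5.32 and 7.20 CPM at 6 h, 7.61, 7.14 and 8 CPM at 12 h, and 8.13 and 14.4 CPM at 24 h. The 6 h libraries lay just below the normoxic ones and the others overlapped them. Its log2 fold changes were -0.32 ± 0.21, -0.07 ± 0.21 and 0.50 ± 0.23 (adjusted p = 0.202, 0.81 and 0.0727, edgeR). Without 24 h replicate 1 the value at 6 h was called (-0.35, adjusted p = 0.0456), as it was with library size alone (-0.64, adjusted p = 0.00839) and by limma-voom with sample quality weights (-0.43, adjusted p = 0.0177). The value at 24 h rested on 1 library: without 24 h replicate 2 it was 0.01, and without 24 h replicate 1 it was 0.81 (adjusted p = 0.00259). Scaled by library size alone, it was -0.50 (adjusted p = 0.0376) at 24 h and -0.53 (adjusted p = 0.0199) at 12 h.

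The balance among the receptors therefore shifted towards BNIP3. Within a library the ratio of 2 genes does not depend on how libraries are scaled, and per kilobase of exon BNIP3 stood at 1.49 to 1.60 times BNIP3L in normoxia, 4.32 to 5.95 times at 6 h, 5.81 to 7.34 times at 12 h, and 9.08 and 9.42 times at 24 h. On the log2 scale this ratio was 2.09 higher over the 8 hypoxic than over the 3 normoxic libraries. BNIP3 over FUNDC1 went from 1.47 to 1.77 in normoxia to 10.1 to 22 in hypoxia, a log2 difference of 3.32. An exact two-sided permutation test gave p = 0.0121 for each, the smallest that its 165 regroupings allow, and 0.0202 after Benjamini-Hochberg adjustment over the 5 ratios tested.

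**Figure D2:**
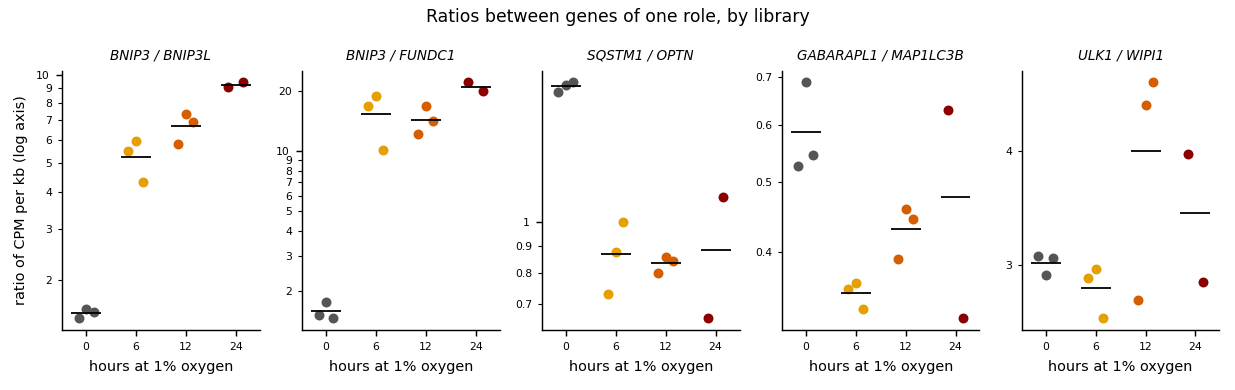
Ratio between the levels per kilobase of 5 pairs of genes in each library (log axis, a separate range per panel) against hours at 1% oxygen. A point is a library and a line the mean of a time point. BNIP3 over BNIP3L and over FUNDC1 is higher in all 8 hypoxic libraries, SQSTM1 over OPTN is lower in all 8, and the normoxic and hypoxic libraries overlap for the other 2 pairs.

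PINK1 (ENSG00000158828, chr1:20633458-20651511, plus strand) rose early and was back near its starting level at 24 h. It was measured at 12.5, 14.2 and 14.0 CPM at 0 h, 22, 26.2 and 23.1 CPM at 6 h, 16.7, 23.8 and 22.2 CPM at 12 h, and 12.7 and 15.6 CPM at 24 h. The libraries of 6 and 12 h lay above the normoxic ones and those of 24 h overlapped them. Against 0 h it changed by 0.81 ± 0.16, 0.63 ± 0.16 and 0.06 ± 0.18 (log2, SE; adjusted p = 0.00113, 0.00632 and 0.776, edgeR). Scaled by library size alone, they were no longer called higher at 12 h (0.17, adjusted p = 0.476) and stood at -0.88 at 24 h (adjusted p = 0.00315). The value at 24 h was -0.11 without 24 h replicate 2. Exons of the antisense gene PINK1-AS cover 39.5% of the exonic bases of PINK1. The strand setting of the counting is not given in the sources used here, so that reads of the pair may not be told apart; PINK1-AS itself changed by 0.16, 0.05 and -0.54 (log2), with only the last called (adjusted p = 0.0404).

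SQSTM1 (ENSG00000161011, chr5:179806398-179838078, plus strand) had the highest level of the 10 genes in normoxia and fell in hypoxia. It went from 368, 405 and 378 CPM at 0 h to 138, 167 and 243 CPM at 6 h, 241, 174 and 195 CPM at 12 h, and 256 and 274 CPM at 24 h. All 8 hypoxic libraries lay below the normoxic ones, with the libraries of 24 h closest to them. The log2 fold changes were -1.07 ± 0.20, -0.92 ± 0.20 and -0.53 ± 0.22 (adjusted p = 0.000718, 0.0023 and 0.055, edgeR). The value at 24 h missed the threshold, and DESeq2 (-0.51, adjusted p = 0.0484) and library size alone (-1.46, adjusted p = 0.000418) put it past it, as did leaving out 6 h replicate 1 or 3 (-0.53 each, adjusted p = 0.0365 and 0.0205) or 12 h replicate 2 (-0.58, adjusted p = 0.0478), the other filters on low counts (-0.64 and -0.68, adjusted p = 0.00746 and 0.0203) and the compared groups alone (-0.52, adjusted p = 0.0374). It stood at -0.60 without 24 h replicate 2 (adjusted p = 0.0725). Exons of MGAT4B and MRNIP cover 22.4% of its exonic bases on the other strand; both were called lower at each time, by -0.54 to -1.14 (log2) for MGAT4B and -0.83 to -1.82 for MRNIP, and their part in the SQSTM1 counts was not tested.

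OPTN (ENSG00000123240, chr10:13099449-13138308, plus strand) moved differently from the other adaptor. Its levels were 143, 153 and 141 CPM at 0 h, 128, 130 and 166 CPM at 6 h, 205, 138 and 158 CPM at 12 h, and 265 and 169 CPM at 24 h. Libraries overlapped at 6 and 12 h, and both of 24 h lay above normoxia. The log2 fold changes were -0.04 ± 0.19, 0.19 ± 0.19 and 0.57 ± 0.21 (adjusted p = 0.861, 0.422 and 0.0339, edgeR). The call at 24 h was lost without 24 h replicate 1 (0.16, adjusted p = 0.514) and without any of the 3 normoxic replicates (0.54 to 0.60, adjusted p = 0.0618 to 0.0892), and the direction turned with library size alone (-0.27). It was also lost with sample quality weights (0.57, adjusted p = 0.143), without a filter on low counts (0.46, adjusted p = 0.0596), with at least 10 counts in every library (0.43, adjusted p = 0.104) and on the compared groups alone (0.59, adjusted p = 0.0684). The value was 0.84 without 24 h replicate 2 (adjusted p = 0.0029). SQSTM1 over OPTN per kilobase fell from 1.75 to 1.82 in normoxia to 0.660 to 1.11 in hypoxia, by 1.08 on the log2 scale, with no overlap between the libraries (exact two-sided permutation test, p = 0.0121, the smallest possible, and 0.0202 after adjustment over the 5 ratios).

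MAP1LC3B (ENSG00000140941, chr16:87383953-87404779, plus strand) codes for LC3B, the ATG8 protein most used to mark autophagosomes and its RNA rose at each time. The libraries read 72.6, 71.2 and 70.1 CPM at 0 h, 150, 148 and 173 CPM at 6 h, 141, 116 and 119 CPM at 12 h, and 125 and 187 CPM at 24 h. No hypoxic library overlapped with normoxia. The log2 fold changes were 1.14 ± 0.16, 0.81 ± 0.16 and 1.13 ± 0.17 (adjusted p = 8.9e-05, 0.00113 and 0.000133, edgeR), and 1.33 or 0.79 at 24 h without 24 h replicate 1 or 2. Scaled by library size alone, the direction held and the calls at 12 h (0.34, adjusted p = 0.0591) and 24 h (0.15, adjusted p = 0.411) were lost.

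MAP1LC3B2, a near-identical gene, shares 17.2% of its 75-base windows with MAP1LC3B. Its counts were 23.5% to 24.5% of those of MAP1LC3B at 0 h, 27.3% to 28.1% at 6 h, 27.5% to 28.1% at 12 h, and 32.1% and 32.5% at 24 h. The share was higher in each hypoxic library than in each normoxic one, unlike that of BNIP3P1, which overlapped between all times. With both genes added together the changes of MAP1LC3B were 1.18, 0.85 and 1.22. FBXO31, with exons opposite 1.19% of the exonic bases, was called higher at 6 and 12 h (1.51 and 0.76).

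GABARAPL1 (ENSG00000139112, chr12:10212458-10223128, plus strand), of the GABARAP branch of the ATG8 proteins, rose by less. It was at 30.8, 39.5 and 30.8 CPM at 0 h, 42.8, 43.2 and 46.2 CPM at 6 h, 44.3, 42.8 and 42.4 CPM at 12 h, and 63.6 and 48.4 CPM at 24 h. The hypoxic libraries lay above the normoxic ones, with normoxic replicate 2 closest to them. The log2 fold changes were 0.39 ± 0.14, 0.36 ± 0.14 and 0.74 ± 0.16 (adjusted p = 0.0369, 0.0539 and 0.00161, edgeR), of which the first and the last were called, and with library size alone they were 0.07, -0.11 and -0.14. At 6 h the call also failed with the other filters on low counts (0.35 and 0.30, adjusted p = 0.153 and 0.0991) and with normoxic replicate 1 or 3, any 6 h replicate, or 12 h replicate 2 or 3 left out (0.32 to 0.41, adjusted p = 0.0555 to 0.151). The value at 12 h was called without normoxic replicate 2 (0.48, adjusted p = 0.028) or 24 h replicate 1 or 2 (0.33 and 0.35, adjusted p = 0.0192 and 0.0132), on the compared groups alone (0.37), and by limma-voom (0.37, or 0.41 with sample quality weights) and DESeq2 (0.34). At 24 h the change was 0.47 without 24 h replicate 1 and 0.90 without 24 h replicate 2, called in both cases. Relative to MAP1LC3B per kilobase it went from 0.527 to 0.689 in normoxia to 0.323 to 0.631 in hypoxia, a log2 difference of -0.53 with overlapping libraries (exact two-sided permutation test, p = 0.0485, and 0.0606 after adjustment over the 5 ratios).

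ULK1 (ENSG00000177169, chr12:131894622-131923150, plus strand), the kinase that starts autophagy when it is released from mTORC1, fell at each time. It read 88.3, 119 and 94.1 CPM at 0 h, 27, 33.4 and 43.1 CPM at 6 h, 42.8, 55.4 and 59.6 CPM at 12 h, and 58.9 and 31.1 CPM at 24 h. All hypoxic libraries lay below the normoxic ones. It changed by -1.54 ± 0.24, -0.93 ± 0.24 and -1.16 ± 0.28 (log2, SE; adjusted p = 0.000221, 0.00632 and 0.00313, edgeR). At 24 h the pair of libraries differed, and the change was -1.75 without replicate 1 and -0.79 without replicate 2, called in both cases.

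WIPI1 (ENSG00000070540, chr17:68420948-68457513, minus strand) codes for a protein that binds phosphatidylinositol 3-phosphate on the forming autophagosome, and it fell by a like amount at all 3 times. Its levels were 12.8, 18.2 and 13.8 CPM at 0 h, 4.17, 5.03 and 7.35 CPM at 6 h, 6.97, 5.51 and 5.60 CPM at 12 h, and 6.63 and 4.85 CPM at 24 h. The hypoxic libraries lay below the normoxic ones and overlapped with each other. Its log2 fold changes were -1.43 ± 0.23, -1.31 ± 0.23 and -1.37 ± 0.27 (adjusted p = 0.000268, 0.000583 and 0.000846, edgeR), and the last was no longer called by limma-voom with sample quality weights (-1.28, adjusted p = 0.0749). The same value was -1.19 without 24 h replicate 2 (adjusted p = 0.00683). Exons on the other strand, of ARSG and a gene without a symbol, cover 28.1% of its exonic bases; ARSG was called lower at each time, from 2.44 CPM at 0 h to 0.411 CPM at 24 h, and its part in the WIPI1 counts was not tested. ULK1 over WIPI1 per kilobase was 2.92 to 3.07 in normoxia and 2.62 to 4.76 in hypoxia, which did not pass (exact two-sided permutation test, p = 0.667, also after adjustment).

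**Figure D3:**
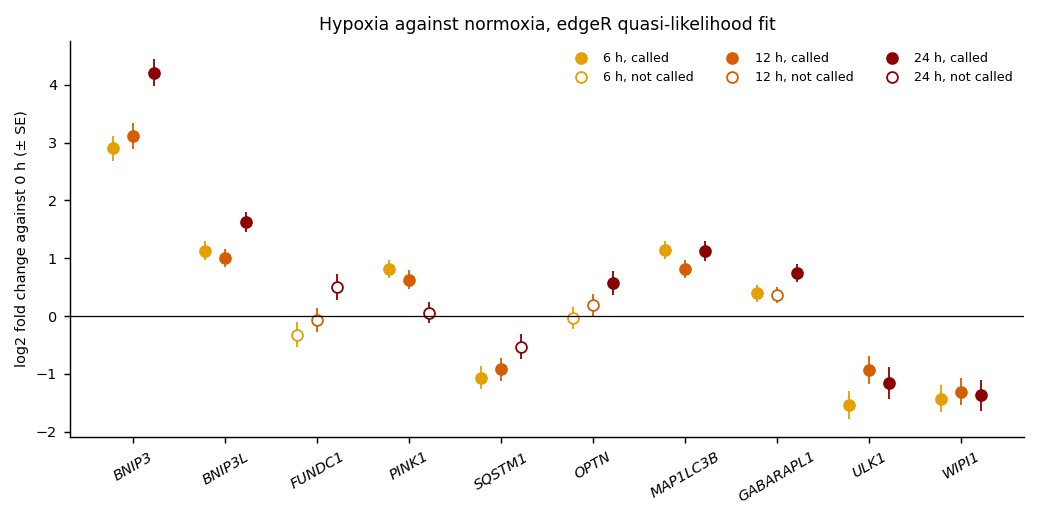
log2 fold change against 0 h for each gene at 6, 12 and 24 h, from edgeR's quasi-likelihood fit over 11 libraries. Bars are a standard error derived from the F statistic of the test. Filled points are called and open points are not. BNIP3 reaches 2.90, 3.11 and 4.21, while ULK1 and WIPI1 lie between -1.54 and -0.93.

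The order of levels changed with it. Levels are per kilobase of the merged exons of all GENCODE transcripts of a gene (5037 bases for MAP1LC3B, whose longest transcript has 3134). The SD is between libraries and does not cover the choice of length, on which the order between genes depends. Per kilobase of exon, SQSTM1 came first at 0 h (50.9 ± 2.53 CPM per kb, SD, n = 3), ahead of OPTN (28.4 ± 1.22) and MAP1LC3B (14.2 ± 0.243), whose libraries did not overlap with those of the next higher gene. MAP1LC3B overlapped with ULK1 (13.2 ± 2.15), BNIP3 (9.99 ± 0.413) with GABARAPL1 (8.31 ± 1.24), and BNIP3L (6.45 ± 0.0793) with FUNDC1 (6.31 ± 0.44), and WIPI1 (4.39 ± 0.842) and PINK1 (2.80 ± 0.197) came last. In hypoxia BNIP3 came first at each time, with 74.7 ± 14.8, 86.3 ± 11.7 and 185 ± 60.8 CPM per kb at 6, 12 and 24 h (SD, n = 3, 3 and 2), apart from the gene after it. MAP1LC3B, OPTN and SQSTM1 took the next places, in an order that differed between times, and each overlapped with its neighbour among the 3. ULK1 went from the fourth place to between the seventh and the ninth, and WIPI1 was last at each hypoxic time. BNIP3 made up 6.90% ± 0.136 of the summed level per kilobase of the 10 genes at 0 h and 37.6% ± 7.55, 40.5% ± 5.65 and 52.7% ± 8.05 at 6, 12 and 24 h, while SQSTM1 went from 35.1% ± 0.286 to 12.2% ± 3.57, 12.7% ± 2.09 and 10.3% ± 1.36.

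Between 6 and 12 h 0 of the 10 genes were called by edgeR's quasi-likelihood test, beside 4.95% of all tested genes. ULK1 alone had an unadjusted p under 0.05 (0.61 ± 0.24, unadjusted p = 0.0254, adjusted p = 0.168). limma-voom and DESeq2 also called 0, and limma-voom with sample quality weights called 2, ULK1 (0.76) and MAP1LC3B (-0.35), beside 22.5% of all genes. Leaving out 24 h replicate 1 gave calls for the same pair of genes (0.60 and -0.33), and leaving out 24 h replicate 2 for ULK1 (0.62), each beside 17.4% of all genes. ULK1 was also called without a filter on low counts (0.63).

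Between 12 and 24 h 3 genes were called, beside 28.4% of all tested genes (15.1% higher, 13.3% lower). BNIP3 rose further by 1.10 ± 0.22 (adjusted p = 0.00465, edgeR), and by 1.38 or 0.71 without 24 h replicate 1 or 2. BNIP3L rose by 0.63 ± 0.17 (adjusted p = 0.0167), which failed the threshold without 24 h replicate 2 (0.27, adjusted p = 0.148) and without 12 h replicate 2 or 3 (0.63 and 0.64, adjusted p = 0.0526 and 0.0532), with library size alone (0.11, adjusted p = 0.594) and without a filter on low counts (0.53, adjusted p = 0.0518). PINK1 fell by 0.56 on the log2 scale (SE 0.18, adjusted p = 0.0381), which failed it without 24 h replicate 1 (-0.45), 12 h replicate 2 or 3 (-0.47 and -0.52) or any normoxic replicate (-0.56 each), with adjusted p = 0.0561 to 0.121, and with median-of-ratios size factors (-0.53, adjusted p = 0.0506). With sample quality weights none of the 3 was called (1.00, 0.57 and -0.66, adjusted p = 0.0512, 0.146 and 0.313, limma-voom). Fitted on the libraries of 12 and 24 h alone, none of the 3 was called (adjusted p = 0.0727, 0.119 and 0.133). With 24 h replicate 1 left out 5 genes were called, and FUNDC1 (0.90), MAP1LC3B (0.55) and ULK1 (-0.79) were among them, beside 45.5% of all genes. With replicate 2 left out 4 were called, OPTN (0.65) and GABARAPL1 (0.55) among them, beside 17.0% of all genes. DESeq2 also called FUNDC1 (0.60) and GABARAPL1 (0.41).

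**Figure D4:**
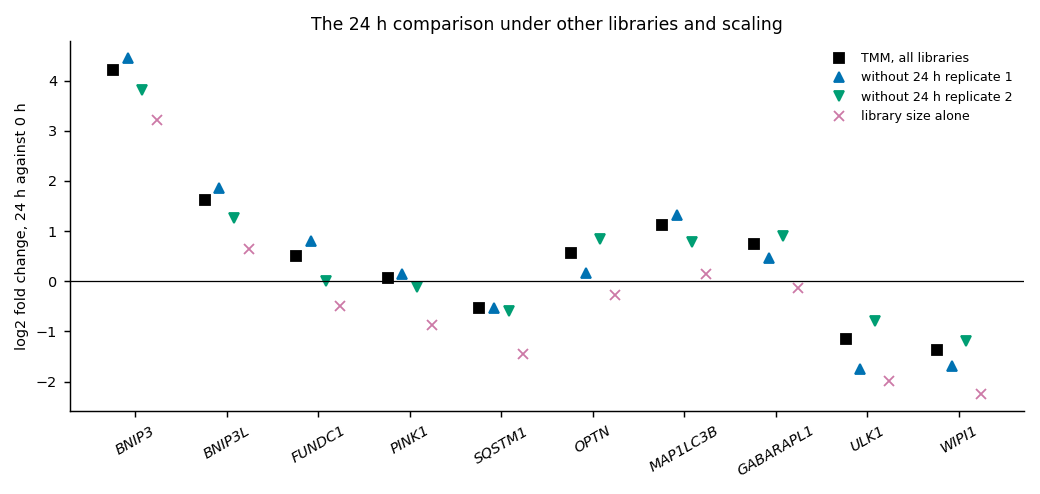
log2 fold change of each gene at 24 h against 0 h with all libraries, without either 24 h library, and with library size alone in place of TMM. BNIP3, BNIP3L and MAP1LC3B stay above 0 and SQSTM1, ULK1 and WIPI1 below 0 in all 4, while FUNDC1, PINK1, OPTN and GABARAPL1 lie below 0 with library size alone.

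Across the 11 libraries, which share their groups and scaling, Pearson's r of log2 CPM is given as a description. It was 0.976 for BNIP3 with BNIP3L, 0.932 for BNIP3L with MAP1LC3B and 0.909 for ULK1 with WIPI1, and -0.924 for MAP1LC3B with ULK1. PINK1 ran less closely with the other genes called higher over all hypoxia, with r of 0.155 for GABARAPL1, 0.421 for BNIP3L, 0.455 for BNIP3 and 0.568 for MAP1LC3B. With BNIP3 the r was 0.349 for OPTN and 0.205 for FUNDC1. Among 9024 genes with a symbol and a mean of at least 10 CPM, those whose pattern was most like BNIP3 were BNIP3P1 (r = 0.999), ANXA2P2 (0.996) and the glycolytic enzyme PGAM1 (0.995). The nearest to SQSTM1 were RBCK1 (0.996), RING1 (0.982) and MICAL1 (0.980), to GABARAPL1 they were P4HB (0.963), TDRD7 (0.940) and ATF2 (0.938), and to ULK1 they were SLC37A2 (0.983), MZF1 (0.974) and PELI2 (0.970).

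Other genes of the pathway were set beside these in 5 lists. Their counts stand beside 25.1%, 24.2% and 29.9% of all tested genes called higher at 6, 12 and 24 h. The shares called lower were 27.7%, 27.1% and 31.3%, and the medians -0.00, -0.03 and -0.06. Counts such as 7 of 22 mitophagy genes higher and 5 of 22 lower at 6 h lie near that background. Others lie above it, such as 10 of 22 mitophagy genes higher at 12 h. At 24 h so do 12 of 22 for mitophagy, 8 of 16 for initiation and nucleation and 6 of 13 for conjugation. Closer to it at 24 h are 3 of 8 cargo adaptors and 6 of 17 genes of fusion and the lysosome. Whether a list departs from the background was not tested. Without 24 h replicate 2 the counts at 24 h were the same in each list, but the call changed for 4 of the 76 genes tested. PARL (1.06, then 0.27) and PLEKHM1 (-0.70, then -0.30) lost theirs, MFN1 (0.30, then 0.50) and TFEB (-0.26, then -0.72) gained one, and the medians were 0.52 for mitophagy, 0.38 for initiation and nucleation, 0.24 for conjugation, -0.22 for cargo adaptors and 0.31 for fusion and the lysosome. These 4 genes are named for that change. Of 22 other mitophagy genes, 7, 10 and 12 were called higher at 6, 12 and 24 h and 5 lower at each time, with medians of 0.13, 0.22 and 0.72. FUNDC2, a paralogue of FUNDC1, rose at each time (1.15, 1.48 and 2.52), as did PGAM5 (1.47, 1.53 and 1.60), a mitochondrial phosphatase that acts on FUNDC1, and the ubiquitin ligase gene MUL1 (0.73, 1.04 and 1.23). NLRX1 (-1.96, -1.74 and -2.83), FBXL4 (-1.68, -1.17 and -1.71) and USP30 (-1.51, -1.02 and -0.93), a mitochondrial deubiquitinase, fell. Of these 6 genes MUL1 lost its call at 24 h with library size alone (0.24) and USP30 with sample quality weights, and no other call was lost under the alternatives run.

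Of 16 other initiation and nucleation genes, 6, 6 and 8 were higher and 2, 3 and 6 lower, with medians of 0.33, 0.39 and 0.20. ATG101 (1.28, 1.22 and 1.56), a subunit of the ULK1 complex, and PIK3C3 (1.09, 1.19 and 1.16), the kinase that makes phosphatidylinositol 3-phosphate, rose, and PIK3C3 lost its call at 24 h with library size alone (0.29, adjusted p = 0.322, edgeR). WDR45B, a paralogue of WIPI1, rose by 0.47, 0.55 and 0.58, but at each time the call was lost with library size alone, which gave -0.29 at 24 h, at 6 and 24 h also without a filter on low counts, and at 24 h also with sample quality weights and without 24 h replicate 1. ULK2, the paralogue of ULK1, fell (-1.06, -1.30 and -1.36), as did ATG13 (-0.43, -0.84 and -1.02), another subunit of the ULK1 complex, whose call at 6 h was lost without normoxic replicate 2 or 6 h replicate 1 (adjusted p up to 0.0734, edgeR).

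Of 14 genes of ATG8 and its conjugation 13 were tested, and 3, 5 and 6 were higher and 4, 2 and 1 lower, with medians of 0.21, 0.21 and 0.33. ATG16L1 (1.54, 1.5 and 1.83) and ATG5 (0.67, 0.69 and 1.2), which form the complex that attaches ATG8 to lipid, and GABARAPL2 (0.88, 0.78 and 1.36) rose. With library size alone ATG5 lost its calls at all 3 times (down to 0.22) and GABARAPL2 at 12 and 24 h (0.31 and 0.35). ATG10, the enzyme that joins ATG12 to ATG5, fell (-1.28, -1.24 and -0.96), a call lost at 24 h with sample quality weights.

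Of 8 other cargo adaptors, 3 were higher at each time and 2, 1 and 3 lower, with medians of 0.11, -0.12 and -0.43. TAX1BP1 (0.64, 0.70 and 1.05), TOLLIP (0.69, 0.48 and 0.59) and NCOA4 (0.67, 0.64 and 0.72), the receptor for ferritin, were called higher at each time; with library size alone TAX1BP1 and NCOA4 lost all 3 calls and TOLLIP those at 12 and 24 h, and TOLLIP and NCOA4 turned to -0.37 and -0.11 at 24 h. NCOA4 also lost its call at 24 h without 24 h replicate 1 and on the compared groups alone, and TOLLIP at 12 h without normoxic replicate 1 and at 24 h with sample quality weights and without a filter on low counts. Of 17 genes of fusion and the lysosome, 4, 7 and 6 were higher and 2, 1 and 3 lower, with medians of 0.26, 0.21 and 0.28. VAMP8 (0.72, 0.95 and 1.97), a SNARE of autophagosome fusion, MITF (1.31, 1.33 and 0.89), of the TFEB family of transcription factors, and the protease gene CTSB (0.51, 0.61 and 1.12) rose, and STX17 (-1.43, -0.94 and -1.46), the SNARE on the autophagosome, fell. With library size alone the calls of VAMP8 at 6 h, of MITF at 24 h and of CTSB at each time were lost, and that of MITF at 24 h also with sample quality weights.

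**Figure D5:**
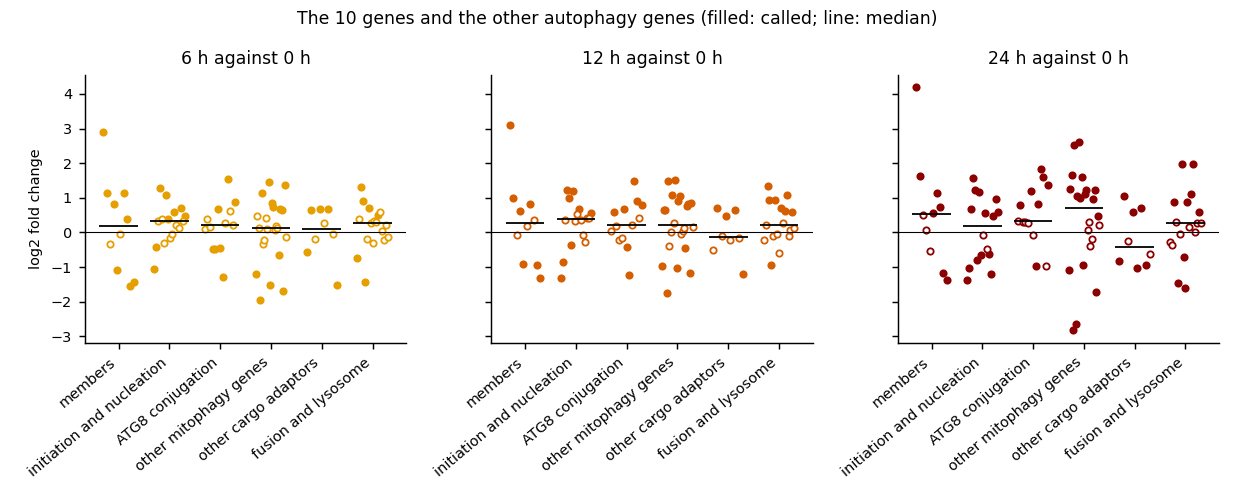
log2 fold change of the 10 genes (members) and of the genes of the 5 other lists at 6, 12 and 24 h against 0 h. A point is a gene, filled where called, and a line is the median of a list. Each list holds genes on both sides of 0 at each time, and BNIP3 is the highest point in every panel.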

How the data were processed

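RNA-seq libraries of RWPE1 cells were built together by the study with a stranded kit and read as single ends. The authors trimmed reads (Trimmomatic), aligned them to GRCh38 (Ensembl release 99) with STAR and deposited raw featureCounts counts per gene for 11 libraries; 0 columns were left unassigned, and strand and multi-match settings are not given in the sources used here. Depth ranged from 27496009 to 49488345 counts. Groups came from the sample titles.

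Genes were matched to GENCODE release 44 by identifier for position and exonic length (60357 of 60676 found). Exonic length counts the merged exons of all transcripts of a gene, and levels per kilobase and the size of ratios between genes depend on it. filterByExpr (minimum count 10, minimum total 15) kept 19981 genes. Counts of all 11 libraries were fitted in edgeR 4.0.16 (R 4.3.3; TMM, glmQLFit and glmQLFTest, time point as the only factor), with Benjamini-Hochberg adjustment across the tested genes and adjusted p under 0.05 called. This test reports no standard error. The SE given with edgeR's changes is the absolute log2 fold change divided by the square root of the F statistic. CPM were computed on the TMM scale. The test was checked on simulated counts with few changed genes, which does not cover data in which much of the transcriptome differs.

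All 10 genes are named. Of each other list, up to 3 higher and 3 lower genes are named, those with the largest mean change among genes called in 1 direction at all 3 times with a mean of at least 1 CPM. Genes alike in pattern are the 3 with the highest r. The 10 genes and all lists were chosen with earlier results of these data known. Alternatives were limma-voom 3.58.1 (the study's own test) with and without sample quality weights, DESeq2 1.42.0, other scaling, other filters, a replicate block, the compared groups alone, and each library left out. Adding near copies to their parent genes was chosen after seeing the data. Promoter windows are from RefSeq (GRCh38.p14), which held 8 of the 10 genes. Some genes of the lists are not reported here.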

Additional observations from a re-analysis of the deposited data

Results flagged for a closer look

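For 3 of the 10 genes the change against 0 h differed between 12 and 24 h, beside 28.4% of all tested genes. The test was of the difference itself, the comparison of 24 with 12 h. BNIP3 was 1.1 higher at 24 h on the log2 scale (adjusted p = 0.00465, edgeR's quasi-likelihood test). BNIP3L was 0.63 higher (adjusted p = 0.0167) and PINK1 changed by -0.56 (adjusted p = 0.0381). None of the 3 was called by limma-voom with sample quality weights, or by edgeR on the libraries of 12 and 24 h alone. Over the alternatives the value ran from 0.58 to 1.38 for BNIP3, from 0.11 to 0.88 for BNIP3L and from -1.05 to -0.45 for PINK1. The group at 24 h held 2 libraries, which lay at 576 and 925 CPM for BNIP3, 65.0 and 101 CPM for BNIP3L, and 12.7 and 15.6 CPM for PINK1. The part of the library that stands apart, 24 h replicate 2, in these values was not tested beyond leaving it out, which gave 0.71, 0.27 and -0.74.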

How the results depend on the processing

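Of 1250 single-gene values recomputed under alternatives 1141 kept direction and side of the threshold. With the direction kept, 41 lost the call and 34 gained one. The other 34 turned sign, and some of these also lost or gained a call. Of 250 counts 218 stayed within 1.5 times. The cause was not tested for any. BNIP3, BNIP3L, ULK1, WIPI1 and MAP1LC3B kept their direction against 0 h in all alternatives run, as did SQSTM1.

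With library size alone the sign turned at 12 h for OPTN (-0.28) and GABARAPL1 (-0.11), at 24 h for FUNDC1 (-0.50), PINK1 (-0.88), OPTN (-0.27) and GABARAPL1 (-0.14), over all hypoxia for FUNDC1 (-0.56), PINK1 (-0.07), OPTN (-0.31) and GABARAPL1 (-0.06), from 6 to 12 h for SQSTM1 (-0.0036) and WIPI1 (-0.04), and from 12 to 24 h for SQSTM1 (-0.07), MAP1LC3B (-0.19) and GABARAPL1 (-0.02). At least 10 counts in every library gave -0.08 for PINK1 at 24 h and -0.07 for FUNDC1 over all hypoxia, and no filter gave -0.05 and -0.02. Sample quality weights gave 0.03 for WIPI1 from 12 to 24 h and -0.04 for FUNDC1 over all hypoxia.

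Leaving out 1 library turned values near 0, given here with the other end of their range over single libraries where it is wider. Without 24 h replicate 2 these were PINK1 at 24 h (-0.11), MAP1LC3B (-0.01, up to 0.55), ULK1 (0.15, down to -0.79) and WIPI1 (0.13, down to -0.34) from 12 to 24 h, and FUNDC1 over all hypoxia (-0.13, up to 0.12). WIPI1 from 12 to 24 h turned without 12 h replicate 1 (0.05) and OPTN without 24 h replicate 1 (-0.01, up to 0.65). OPTN at 6 h turned without 6 h replicate 1 (0.02) or 2 (0.02, down to -0.17), SQSTM1 and WIPI1 from 6 to 12 h without 6 h replicate 1 (-0.01, up to 0.42, and -0.05), GABARAPL1 from 6 to 12 h without 6 h replicate 3 (0.0024), and FUNDC1 over all hypoxia without normoxic replicate 2 (-0.02).

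Counts for the 10 genes with 1 library left out were 7 to 9 at 6 h, 7 to 8 at 12 h, 6 to 8 at 24 h, 0 to 2 from 6 to 12 h, 1 to 5 from 12 to 24 h (1 without 12 h replicate 2 or 3, 5 without 24 h replicate 1) and 8 to 9 over all hypoxia. At 6 h, from 6 to 12 h and over all hypoxia the top count came from a fit without a 24 h library. So did that from 12 to 24 h. In those fits more of all tested genes were called too, and the ranges that follow leave them out. With a library of 0, 6 or 12 h left out, 8657 of 19697 to 10442 of 19908 tested genes were called at 6 h. The range was 8176 of 19713 to 10249 of 19861 at 12 h, and 10759 of 19697 to 12269 of 19861 at 24 h. From 6 to 12 h it was 61 of 19927 to 1003 of 19861. From 12 to 24 h it was 3068 of 19903 to 5772 of 19861, and over all hypoxia 10703 of 19713 to 12673 of 19884. From 6 to 12 h, in place of 0, sample quality weights gave 2 (22.5% of all genes) and no filter 1 (1674 of 39835). From 12 to 24 h, in place of 3 (28.4% of all tested genes), DESeq2 gave 5 (6594 of 19981). Sample quality weights gave 0 (1093 of 19981) and the compared groups alone 0 (0 of 17807). In these last settings 2 and 3 of the 10 genes had an unadjusted p under 0.05.

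For all genes, sample quality weights called 6169 at 24 h in place of 12235. From 6 to 12 h, in place of 989, sample quality weights gave 4489, DESeq2 1919, no filter 1674 and the compared groups alone 1876, and leaving out 1 library 61 (12 h replicate 3) to 3649 (24 h replicate 2). All single libraries but 6 h replicate 3 moved this count by over 1.5 times: 432 to 490 without a normoxic replicate, 242 and 151 without 6 h replicates 1 and 2, 627 and 125 without 12 h replicates 1 and 2, and 3621 without 24 h replicate 1. From 12 to 24 h, in place of 5668, sample quality weights gave 1093, and edgeR's quasi-likelihood test on the compared groups alone 0 (5671 at an unadjusted p under 0.05). Leaving out 1 library gave 3068 (12 h replicate 2) to 9491 (24 h replicate 1), with 3170 and 3555 without 12 h replicate 3 and 24 h replicate 2.

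Same-numbered libraries did not deviate together (r of -0.156 to 0.207 over 15 pairs, 2 above 0.1), so the numbers were not taken to pair the samples. With a replicate block the counts for the 10 genes were 7, 7, 7, 0, 3 and 8 in the 6 comparisons. Beside them 10124, 9805, 11534, 510 (from 6 to 12 h), 4463 and 12279 of 19981 tested genes were called. Of 60 single-gene values 59 kept their call, and GABARAPL1 at 6 h (0.39, adjusted p = 0.0605, edgeR's quasi-likelihood test) did not. The shared share of reads between near copies, 2 libraries at 24 h and unknown strand counting limit what these counts resolve.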

Other observations

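A few genes of the lists fall outside the rule for named genes and were picked after their values were seen. TOMM7, a part of the mitochondrial import channel that holds PINK1, was at 79.0, 105, 167 and 487 CPM on average at 0, 6, 12 and 24 h, with 273 and 700 CPM in the 24 h libraries and a log2 fold change of 2.62 ± 0.31 at 24 h (adjusted p = 1.89e-05, edgeR's quasi-likelihood test). CTSD, a lysosomal protease, went from 175 CPM at 0 h to 398 and 970 CPM at 24 h (1.97 ± 0.29, adjusted p = 9.95e-05). MAP1LC3A, a paralogue of MAP1LC3B, went from 9.26 CPM to 17.6 and 38.8 CPM (1.60 ± 0.28, adjusted p = 0.00031). All 3 stayed called at 24 h under the 21 alternatives, with the lowest values, 1.56, 0.91 and 0.57, for library size alone.

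GABARAP, of the same family as GABARAPL1, had 3 to 40 counts in a library, and MAP1LC3C had at most 2. The part of the counting settings for strand and multiple matches, which are not given, in these low counts was not tested.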
